A study of Homo sapiens with 6 samples.

Results

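Of the 9 genes described here, PGD and ME1 encode enzymes that make the reducing cofactor NADPH. TKT and TALDO1 encode enzymes of the non-oxidative branch of the pentose phosphate pathway. AKR1B1, AKR1B10, AKR1C1, AKR1C2 and AKR1C3 encode aldo-keto reductases that use NADPH. All 9 were chosen by gene symbol, as a metabolic arm of the response to the transcription factor NRF2, with earlier results of these data known. They are 9 of the 58735 genes in the expression table. Total RNA of T24, a human bladder cancer cell line, was sequenced. There are 3 libraries labelled sgOTUD1, with the genotype given as OTUD1 knockout. The controls are 3 labelled sgNC, which carry an empty vector. Nothing in the labels says whether a group is 1 clone or whether its replicates were grown separately, and p-values therefore rest on a spread between libraries that may be technical.

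NADPH carries the electrons that cells spend on glutathione and thioredoxin recycling, on lipid synthesis and on the reduction of carbonyl compounds. The oxidative branch of the pentose phosphate pathway makes it from glucose, the non-oxidative branch returns pentoses to glycolysis, and cytosolic malic enzyme makes it from malate. Aldo-keto reductases spend it on aldehydes, ketones and steroids, and several genes of both kinds are textbook targets of NRF2, which binds antioxidant response elements in DNA.

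Depth was even, at 16697370 to 17191933 assigned reads per library. OTUD1, which encodes a deubiquitinase, stood at 17.05 ± 0.83 FPKM in the libraries labelled sgOTUD1 and at 14.7 ± 0.83 FPKM in sgNC (SD, n = 3 each). On the deposited values OTUD1 was called higher in sgOTUD1 (log2 fold change 0.20, adjusted p = 0.0167 in limma), and the groups did not overlap. Its transcript level was thus not lower under the knockout label, and it does not check a small edit of the coding sequence. All 6 epithelial markers were expressed, with 4 called higher and 1, CDH1, called lower (48.2 FPKM in sgOTUD1 and 69.1 FPKM in sgNC), and KRT5 stood at 1483 FPKM in sgOTUD1 and 1195 FPKM in sgNC. Of 6 urothelial markers 3 were tested: GATA3 was called higher (4.94 FPKM in sgOTUD1, 3.96 FPKM in sgNC), TP63 was called lower (36.0 FPKM in sgOTUD1, 41.2 FPKM in sgNC), UPK2 did not pass, and the differentiation marker UPK3A was at 0 in all 6 libraries. The summed fibroblast markers lay at 3.55 to 4.09 FPKM in sgOTUD1 and 5.56 to 6.17 FPKM in sgNC, nearly all COL1A1, the 1 of 5 that was tested and called lower, and PDGFRB and LUM were at 0. Summed endothelial markers were at 0.752 to 0.902 FPKM in sgOTUD1 and 2.52 to 2.69 FPKM in sgNC, nearly all CDH5 and VWF, with CDH5 the 1 of 4 tested and called lower and KDR at 0. Summed leukocyte markers stayed at or below 0.119 FPKM in sgOTUD1 and 0.0508 FPKM in sgNC, with 0 of 5 tested and PTPRC and MS4A1 at 0. Mitochondrial transcripts took 2.15% ± 0.077 of reads in sgOTUD1 and 4.01% ± 0.18 in sgNC (SD, n = 3 each), and the part of these marker and mitochondrial differences in the results below was not tested.

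Each of the 9 genes was higher in every sgOTUD1 library than in every sgNC library. FPKM is the number of reads per length of annotated exon and sequencing depth, and the groups were compared by limma on log2(FPKM + 1) over 14658 genes with a mean of at least 0.5 FPKM. A gene was called at a Benjamini-Hochberg adjusted p under 0.05. AKR1C2 lay below the filter, and the other 8 were all called higher. Of all tested genes 31.2% were called higher and 24.7% lower, and 34.9% had every sgOTUD1 library above every sgNC library, so calls were common across the transcriptome. Increases were more common at higher levels. At a mean of at least 5 FPKM, 3463 of 7047 genes were called higher and 1757 lower, and 6 of the members lay in that set. AKR1B10 and AKR1C1 averaged under 0.5 FPKM in sgNC and passed the filter through the sgOTUD1 libraries, so their inclusion already required a difference. The log2 fold changes of the 8 ran from 0.27 to 1.34 with a median of 0.65, and the median over all tested genes was 0.03. Because the genes were chosen with earlier results of these data known, these counts and medians only describe them. For each of the 9 genes the two-sided exact permutation p was 0.1, the smallest that 3 against 3 libraries allow. The libraries hold RNA of whole cultures, in which more cells expressing a gene and more RNA per cell cannot be told apart.

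**Figure D1:**
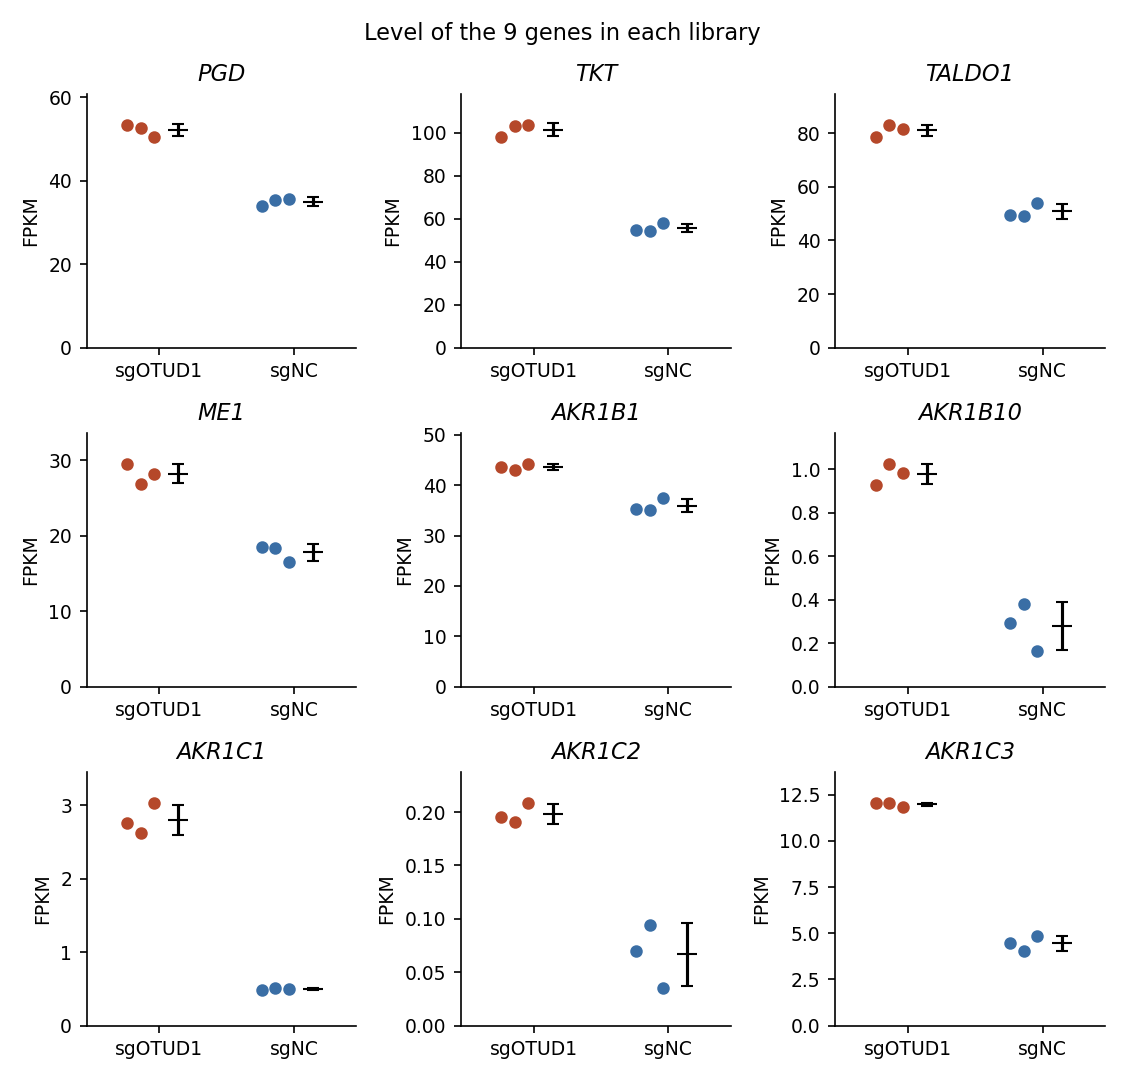
FPKM of the 9 genes in each library, sgOTUD1 in red on the left and sgNC in blue on the right of each panel, with the mean and SD of 3 libraries as a black bar; each panel has its own axis from 0. The groups do not overlap in any panel, and the levels run from under 0.21 FPKM for AKR1C2 to 103 FPKM for TKT.

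PGD encodes 6-phosphogluconate dehydrogenase, the enzyme of the second NADPH-yielding step of the oxidative branch. Its gene (ENSG00000142657) spans positions 10398592 to 10420144 on the plus strand of chromosome 1 of hg38. PGD stood at 53.3, 52.6 and 50.5 FPKM in sgOTUD1 libraries 1, 2 and 3, against 33.9, 35.4 and 35.7 FPKM in the sgNC libraries. The groups were well separated, with an SD of 2.73% of the mean in sgOTUD1 and 2.78% in sgNC. The means of sgOTUD1 and sgNC were 1.49-fold apart, and the log2 fold change was 0.56 (SE 0.037, adjusted p = 3.12e-05 in limma).

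TKT encodes transketolase, which moves short carbon units between sugar phosphates in the non-oxidative branch. The gene (ENSG00000163931) lies on the minus strand of chromosome 3 from 53224707 to 53256052. TKT had 97.8, 103 and 103 FPKM in the sgOTUD1 libraries, against 54.6, 54.2 and 57.7 FPKM in the sgNC libraries. Per length of exon, it had the highest level of the 9 genes in both groups, although its exon union of 9507 nt, by which FPKM divides, is longer than its principal transcript of 3010 nt. The 47456 reads in sgOTUD1 and 28062 in sgNC made a scaled ratio of 1.83, with an exact 95% interval for counting error of 1.80 to 1.85. Its log2 fold change was 0.86 (SE 0.039; adjusted p = 9.01e-06 in limma).

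TALDO1 encodes transaldolase, the partner of transketolase in the same branch. The gene (ENSG00000177156) runs from 747329 to 765024 on the plus strand of chromosome 11. Its levels were 78.7, 83.0 and 81.5 FPKM in sgOTUD1, against 49.4, 49.3 and 54.2 FPKM in sgNC. The third sgNC library was the highest of its group and still lay well under the lowest sgOTUD1 library. The log2 fold change was 0.66 (SE 0.046; adjusted p = 3.90e-05 in limma), and it was 0.40 after a correction for transcript length described further on.

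ME1, the cytosolic malic enzyme, makes NADPH outside the pentose phosphate pathway. It occupies 83210389 to 83431071 on the minus strand of chromosome 6 (ENSG00000065833). ME1 was at 29.5, 26.9 and 28.2 FPKM in sgOTUD1, against 18.5, 18.4 and 16.5 FPKM in sgNC. The groups did not overlap, and the SD was 4.52% of the mean in sgOTUD1 and 6.47% in sgNC. The means, 28.2 ± 1.28 FPKM in sgOTUD1 and 17.8 ± 1.15 FPKM in sgNC (SD, n = 3 each), gave a log2 fold change of 0.64 (SE 0.057; adjusted p = 0.000107 in limma).

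AKR1B1 and AKR1B10 are neighbours on chromosome 7 of unlike level. AKR1B1 encodes aldose reductase, the first enzyme of the polyol pathway, and lies on the minus strand from 134442350 to 134459284 (ENSG00000085662). AKR1B1 stood at 43.5, 42.9 and 44.2 FPKM in sgOTUD1, against 35.2, 35.1 and 37.5 FPKM in sgNC. This was the smallest change of the 8 tested genes, although the libraries did not overlap. Its log2 fold change was 0.27 (SE 0.038; adjusted p = 0.000841 in limma). The value was 0.13 after median-ratio rescaling (adjusted p = 0.0130) and 0.03 after the correction for transcript length (adjusted p = 0.531), which ended the limma call.

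AKR1B10, best known for reducing retinal and other aldehydes, runs from 134527592 to 134541408 on the plus strand (ENSG00000198074). Its levels were 0.930, 1.02 and 0.982 FPKM in sgOTUD1, against 0.291, 0.383 and 0.164 FPKM in sgNC. These rest on 27, 29 and 28 reads in sgOTUD1 and on 9, 12 and 5 reads in sgNC. The gene was thus near the floor of the measurement in sgNC, where the SD was 39.3% of the mean. The log2 fold change on the log2(FPKM + 1) scale was 0.63 (SE 0.107; adjusted p = 0.00213 in limma). That offset understates changes of low genes. The scaled ratio of reads was 3.49, with a counting interval of 2.23 to 5.65. On the recovered reads limma-voom gave a log2 fold change of 1.70 (adjusted p = 0.000437). AKR1B15, a near copy of AKR1B10, went the other way, with 33, 16 and 34 reads in sgOTUD1 and 46, 40 and 50 in sgNC. AKR1B10 shares 14.6% of its 50 nt stretches with other genes, mostly AKR1B15. How reads were divided between AKR1B10 and AKR1B15 is uncertain, and their sum was not tested.

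The 3 AKR1C genes encode hydroxysteroid dehydrogenases and lie in a cluster on chromosome 10. Their coding sequences are nearly alike, which bears on how far reads can be told apart. Coding bases 73 to 162 of the principal GENCODE 29 transcripts are shown because they hold many of the differences. Capitals mark the 19 columns at which the 3 sequences are not all the same.
AKR1C1: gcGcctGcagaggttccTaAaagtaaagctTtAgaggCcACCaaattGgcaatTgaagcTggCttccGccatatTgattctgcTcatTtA
AKR1C2: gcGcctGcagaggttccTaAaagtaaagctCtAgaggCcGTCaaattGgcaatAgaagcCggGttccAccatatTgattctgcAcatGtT
AKR1C3: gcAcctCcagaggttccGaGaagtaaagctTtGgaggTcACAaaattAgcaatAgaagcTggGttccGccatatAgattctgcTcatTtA
Over the 969 coding bases, AKR1C1 and AKR1C2 differ at 19 positions (98.0% identity), 10 of them inside this stretch. AKR1C3 differs from AKR1C1 at 83 positions (91.4% identity) and from AKR1C2 at 87 (91.0% identity).

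AKR1C1, whose enzyme inactivates progesterone, lies on the plus strand from 4963253 to 4983283 (ENSG00000187134). AKR1C1 had 2.75, 2.62 and 3.03 FPKM in sgOTUD1, against 0.483, 0.508 and 0.496 FPKM in sgNC. The 3 sgNC libraries were almost equal and all lay more than 5-fold below the sgOTUD1 libraries. AKR1C1 had the largest log2 fold change of the 8 tested genes, 1.34 (SE 0.072; adjusted p = 1.46e-05 in limma), which ranked 125 among the increases of all tested genes. Its reads, 1209 in sgOTUD1 and 231 in sgNC, made a scaled ratio of 5.65 with a counting interval of 4.91 to 6.54, and limma-voom gave a log2 fold change of 2.36.

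AKR1C2, whose enzyme inactivates dihydrotestosterone, lies on the minus strand from 4987400 to 5018031 (ENSG00000151632). AKR1C2 was at 0.195, 0.191 and 0.208 FPKM in sgOTUD1, against 0.0699, 0.0947 and 0.0354 FPKM in sgNC, from 63 and 23 reads in all. The groups did not overlap, but every library was below the 0.5 FPKM filter. The difference on the log2(FPKM + 1) scale was 0.17, and with no filter the limma adjusted p was 0.0901. The scaled ratio of its reads was 2.96 (counting interval 1.81 to 5.00), and limma-voom, which kept the gene, gave a log2 fold change of 1.48 (adjusted p = 0.00323).

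AKR1C3, which reduces androstenedione to testosterone and prostaglandin D2 to a prostaglandin F isomer, was the most abundant of the 3 per length. It lies on the plus strand from 5035354 to 5107686 (ENSG00000196139). AKR1C3 stood at 12.02, 12.03 and 11.85 FPKM in sgOTUD1, against 4.47, 4.03 and 4.86 FPKM in sgNC. The sgOTUD1 libraries agreed within an SD of 0.838% of their mean, and the sgNC libraries varied more, with 9.35%. Its log2 fold change was 1.25 (SE 0.061; adjusted p = 1.03e-05 in limma), and the scaled ratio of its reads, 2670 in sgOTUD1 and 1072 in sgNC, was 2.69 (counting interval 2.51 to 2.89).

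Some reads of AKR1C1 and AKR1C2 cannot be told apart. Of all stretches of 100 nt in the annotated transcripts of AKR1C1, 16.7% also occur in a transcript of another gene, nearly all in AKR1C2. For AKR1C2 that share was 23.1%, for AKR1C3 1.75% and for AKR1B10 1.59%, and it was 0 for the other 5 genes. The shares depend on the length of stretch. With 50 nt they were 28.6% for AKR1C1, 38.9% for AKR1C2 and 14.6% for AKR1B10, the last mostly with AKR1B15. They were then 5.45% for AKR1B1, 4.53% for AKR1C3 and 4.16% for PGD. With 150 nt they were 10% for AKR1C1 and 13.7% for AKR1C2, and 0 for AKR1B10. The treatment of reads that match more than 1 gene was not stated by the sources used here, so the separate values of AKR1C1 and AKR1C2 are uncertain. Those of AKR1B10 and AKR1B15 are uncertain too, to an extent that depends on read length. The sum of AKR1C1 and AKR1C2 does not depend on how reads are divided between these 2 genes. A few stretches also occur in AKR1C3 or AKR1C4, and reads left out of the counting would lower this sum and the sum of all 3. Summed AKR1C reads, in RPM on the deposited scaling (which follows the size factors and not the total of assigned reads), were 79.9, 78.7 and 81.6 in sgOTUD1, against 24.95, 23.3 and 26.6 in sgNC. The sum was 3.21-fold higher in sgOTUD1 on this scaling, a log2 difference of 1.68 (two-sided exact permutation p = 0.1), and the difference was 1.53 with TPM. For AKR1C1 and AKR1C2 together it was 5.41-fold higher, a log2 difference of 2.43.

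**Figure D2:**
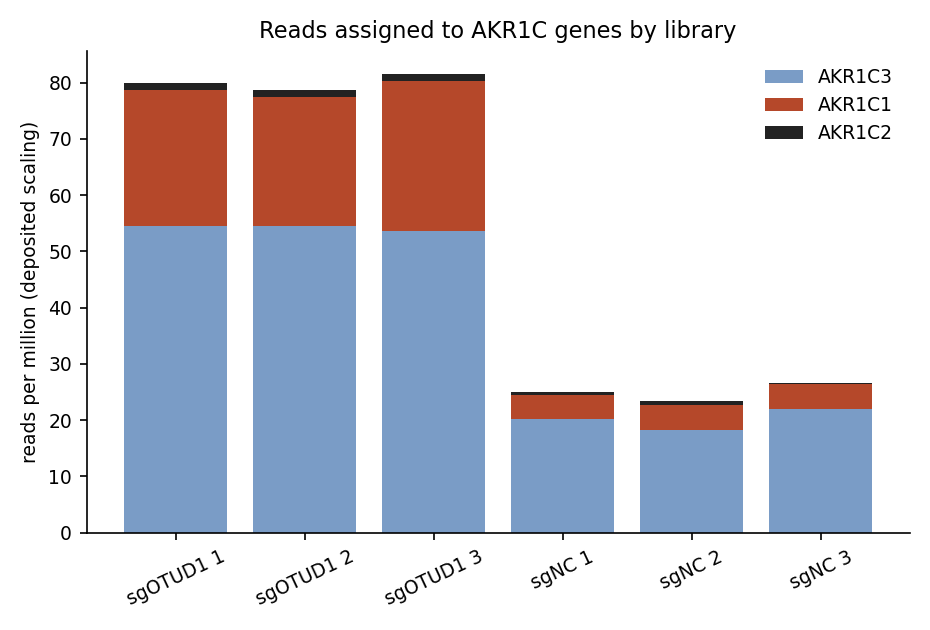
Reads assigned to AKR1C3 (light blue), AKR1C1 (red) and AKR1C2 (black) in RPM of each library, on the deposited scaling, stacked from 0; sgOTUD1 libraries are on the left and sgNC libraries on the right. The stacks reach 78.7 to 81.6 in sgOTUD1 and 23.3 to 26.6 in sgNC, and the red share is larger in sgOTUD1.

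The makeup of the AKR1C reads differed too. AKR1C1 took 29.2% to 32.5% of them in sgOTUD1 and 16.3% to 19.1% in sgNC. AKR1C3 took 65.8% to 69.2% in sgOTUD1 and 78.3% to 82.8% in sgNC, so it held most AKR1C reads in every library. AKR1C2 took 1.57% to 1.65% in sgOTUD1 and 0.860% to 2.63% in sgNC, and its ranges overlapped.

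Ratios between genes of the same library show unequal change and do not depend on the scaling between libraries. In 4 of 5 such ratios the groups did not overlap, with an exact permutation p of 0.1 each and 0.125 after adjustment over the 5, so none passed. The log2 ratio of AKR1C3 to AKR1C1 averaged 2.10 ± 0.118 in sgOTUD1 and 3.16 ± 0.158 in sgNC (SD, n = 3 each), a difference of -1.07. That of AKR1B10 to AKR1B1 averaged -5.48 ± 0.080 in sgOTUD1 and -7.09 ± 0.677 in sgNC (SD, n = 3 each), a difference of 1.62. Differences were smaller for the remaining ratios that did not overlap. TKT against TALDO1 differed by 0.20, and ME1 against IDH1 by 0.30. Their size depended on length correction, under which TKT against TALDO1 differed by 0.46 to 0.60, and ME1 against IDH1 by 0.19 to 0.42. AKR1C1 against AKR1C2 overlapped between the groups, with a difference of 0.81 and an exact permutation p of 0.2.

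Of 14 listed genes of the pentose phosphate pathway, 12 were tested, PGD, TKT and TALDO1 among them. In limma 9 rose and 1 fell, with a median log2 fold change of 0.36. For this and the later lists, the shares among all tested genes were 31.2% called higher and 24.7% called lower. RPIA, the ribose phosphate isomerase, averaged 13.0 FPKM in sgOTUD1 and 8.37 FPKM in sgNC, a log2 fold change of 0.58 (adjusted p = 0.000254). PRPS1 and PRPS2, which make the nucleotide precursor PRPP from ribose phosphate, rose by log2 fold changes of 0.48 and 0.36, and the epimerase RPE by 0.34. These 4 calls held in the alternatives run, with lower values of 0.20 for RPE with TPM, and of 0.34 for RPIA, 0.30 for PRPS1 and 0.19 for PRPS2 after exon length correction. PGLS, the lactonase of the oxidative branch, had 0.36, but its limma call ended with TPM (0.22, adjusted p = 0.0518) and after the correction for transcript length (0.04). DERA, the deoxyribose phosphate aldolase, had 0.23, and its call ended with median-ratio rescaling, TPM, limma-voom and both length corrections (0.05 to 0.12). RBKS (-0.04) and SHPK (0.24) did not pass, whereas SHPK was called in limma without trend and robust settings (adjusted p = 0.0188) and after transcript length correction (0.28, adjusted p = 0.0401).

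H6PD, which carries out the oxidative steps inside the endoplasmic reticulum, was the gene of this pathway that fell. It averaged 4.18 ± 0.233 FPKM in sgOTUD1 and 9.56 ± 0.081 FPKM in sgNC (SD, n = 3 each), a log2 fold change of -1.03 (adjusted p = 9.01e-06 in limma), and -0.64 after the correction for transcript length. With TPM it was -1.29 and with limma-voom -1.325. The groups did not overlap.

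Of 15 genes listed for other NADPH sources and related steps, ME1 included, 13 were tested, 8 rose and 1 fell, with a median of 0.26. MTHFD2, a mitochondrial folate dehydrogenase, averaged 61.7 FPKM in sgOTUD1 and 40.7 FPKM in sgNC (log2 fold change 0.59). IDH1, the cytosolic isocitrate dehydrogenase, averaged 39.8 FPKM in sgOTUD1 and 30.9 FPKM in sgNC (0.35). Changes were 0.36 for the folate enzyme MTHFD2L, 0.26 for its cytosolic relative MTHFD1 and 0.31 for the glutamate dehydrogenase GLUD1. With TPM they were smaller for IDH1 (0.21), MTHFD1 (0.11) and GLUD1 (0.16). They were larger for MTHFD2L with limma-voom (0.60) and for MTHFD1 after exon length correction (0.50), and all of these were called. The mitochondrial IDH2 had 0.34, and its limma call ended with median-ratio rescaling, TPM and exon length correction (0.19 to 0.21). MTHFD1L had 0.13, which changed sign with median-ratio rescaling and TPM. Its call also ended without sgNC replicate 1 (adjusted p = 0.0770), sgNC replicate 2 (0.119), sgOTUD1 replicate 2 (0.0875) or sgOTUD1 replicate 3 (0.121). NADK, the kinase that makes NADP from NAD, fell by 0.14 on the log2 scale, and its call ended without sgNC replicate 1 (-0.12, adjusted p = 0.0728) and after exon length correction (-0.09). The fall of NADK was larger with TPM (-0.30), median-ratio rescaling (-0.27) and limma-voom (-0.29). The mitochondrial malic enzymes ME2 and ME3 had 0.06 and -0.02 and did not pass, whereas ME2 had 0.36 and was called after exon length (adjusted p = 0.00260) and transcript length correction (adjusted p = 0.00284). The transhydrogenase NNT had 0.07 and did not pass, and was called after exon length (0.25) and transcript length correction (0.34).

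Among 16 listed aldo-keto reductases, 9 were tested, 6 rose and 1 fell, with a median of 0.42. The members AKR1B1, AKR1B10, AKR1C1 and AKR1C3 are in these counts and all rose. AKR1B10 and AKR1C1 entered through their sgOTUD1 level, as said above. Beyond the members, AKR1A1, the broad aldehyde reductase, averaged 55.6 ± 1.57 FPKM in sgOTUD1 and 33.6 ± 1.55 FPKM in sgNC (SD, n = 3 each), a log2 fold change of 0.71. AKR7A2, which reduces succinic semialdehyde, averaged 42.8 FPKM in sgOTUD1 and 31.7 FPKM in sgNC (0.42), and its value after exon length correction was 0.16. KCNAB2, a potassium channel subunit with an aldo-keto reductase fold, averaged 2.40 FPKM in sgOTUD1 and 3.29 FPKM in sgNC (-0.34), and its limma call ended after exon length correction (-0.15, adjusted p = 0.134). The fall of KCNAB2 was larger with TPM (-0.56) and limma-voom (-0.59). AKR1B15, the nearest copy of AKR1B10, stood at 0.506 FPKM in sgOTUD1 and 0.770 FPKM in sgNC. Its log2 fold change of -0.24 did not pass in limma (adjusted p = 0.141), whereas limma-voom on its reads gave -0.79 (adjusted p = 0.0180). Of 18 copies and pseudogenes of the members, AKR1B15 was the one that passed the filter and 12 were at 0 in all libraries. AKR1C7P averaged 0.296 FPKM in sgOTUD1 and 0.292 FPKM in sgNC, and AKR1C4, AKR1C6P, AKR1C8P and TKTL1 averaged under 0.06 FPKM in both groups.

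**Figure D3:**
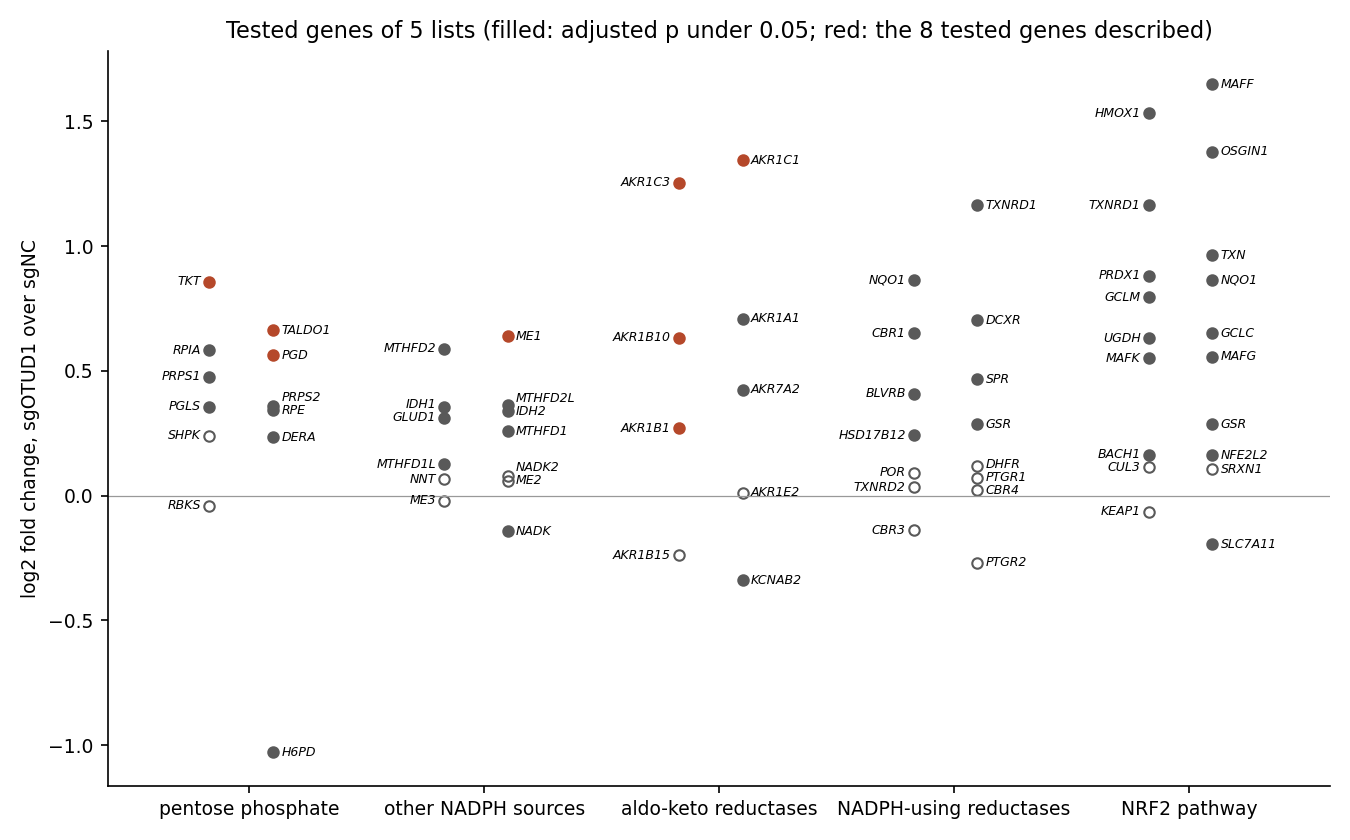
Log2 fold change, sgOTUD1 over sgNC, of each tested gene of 5 lists, left and right placement within a list serving only to separate labels; filled points passed a limma adjusted p of 0.05, open points did not, and red points are the 8 tested genes. Most filled points lie above 0, with H6PD at -1.03 as the lowest.

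All 15 listed reductases that use NADPH for other tasks were tested. In limma 8 rose and 0 fell, with a median of 0.24. With TPM or median-ratio rescaling 6 were called higher and 2 lower, the 2 being CBR3 and PTGR2, which had -0.14 and -0.27 on the deposited values and -0.32 and -0.58 with TPM. With transcript length correction 7 were called higher and 2 lower, CBR3 (-0.34) and PTGR1 (-0.17, against 0.07 on the deposited values). TXNRD1, the cytosolic thioredoxin reductase, averaged 79.0 FPKM in sgOTUD1 and 34.7 FPKM in sgNC (log2 fold change 1.16). NQO1, the quinone reductase, averaged 175 FPKM in sgOTUD1 and 96.0 FPKM in sgNC (0.86). The carbonyl reductase CBR1 had 0.65, the xylulose reductase DCXR 0.70 and the sepiapterin reductase SPR 0.47, with lower values after length correction (0.39 by transcript for CBR1, 0.35 by transcript for DCXR and 0.17 by exon length for SPR). Glutathione reductase GSR had 0.29, but its limma call ended with median-ratio rescaling (0.15) and TPM (0.14). The call of BLVRB (0.41) ended after the correction for transcript length (0.04). That of HSD17B12 (0.24) ended under 9 alternatives, among them leaving out sgNC replicate 2 (adjusted p = 0.0663), sgNC replicate 3 (0.0911), sgOTUD1 replicate 1 (0.0876) or sgOTUD1 replicate 3 (0.0837). TXNRD1, NQO1 and GSR are also in the list of the NRF2 pathway and are counted in both lists. In that NRF2 list 19 of 21 genes were tested, 15 rose and 1 fell, with a median of 0.63. Beside TXNRD1, its calls of smallest p were TXN, which encodes thioredoxin (0.96, and 0.59 after transcript length correction), and OSGIN1 (1.38). The cystine transporter SLC7A11 had -0.20, a call that ended without sgNC replicate 1 (adjusted p = 0.0616), sgNC replicate 2 (0.0600) or sgOTUD1 replicate 2 (0.0559), and the value changed sign after both length corrections. For SLC7A11 the fall was larger with TPM (-0.36) and limma-voom (-0.35). With TPM or median-ratio rescaling 12 of the NRF2 list were called higher and 2 lower.

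Other scalings shifted the whole distribution. The median over all tested genes became -0.10 with TPM and -0.07 with median-ratio rescaling, against 0.03 on the deposited values. The 8 tested members kept positive fold changes and calls under both, with medians of 0.62 and 0.55. Called genes numbered 3265 higher and 4985 lower of 14670 tested with median-ratio rescaling, against 4577 higher and 3615 lower of 14658 tested on the deposited values. With TPM they numbered 3136 higher and 5394 lower of 19388 tested, a larger set because the same filter was applied to TPM.

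Fold change also fell with gene length in these libraries. Over 11372 nuclear protein-coding genes, the log2 fold change dropped by 0.15 per doubling of exon length (Pearson r across genes -0.354, genes sharing the same 6 libraries). TKT and AKR1C1, with exon unions of 9507 and 8765 nt, lay above the trend, and AKR1B1 lay near it. After the trend was removed with exon length, the fold changes were 1.11 for TKT, 1.46 for AKR1C1, 1.24 for AKR1C3, 0.53 for ME1 and AKR1B10, 0.52 for TALDO1, 0.42 for PGD and 0.19 for AKR1B1. With the length of the principal transcript in place of the exon union they were 0.86 for TKT, 1.51 for AKR1C1, 1.10 for AKR1C3, 0.68 for ME1, 0.56 for AKR1B10, 0.40 for both TALDO1 and PGD, and 0.03 for AKR1B1. All of these were called except AKR1B1 with transcript length.

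**Figure D4:**
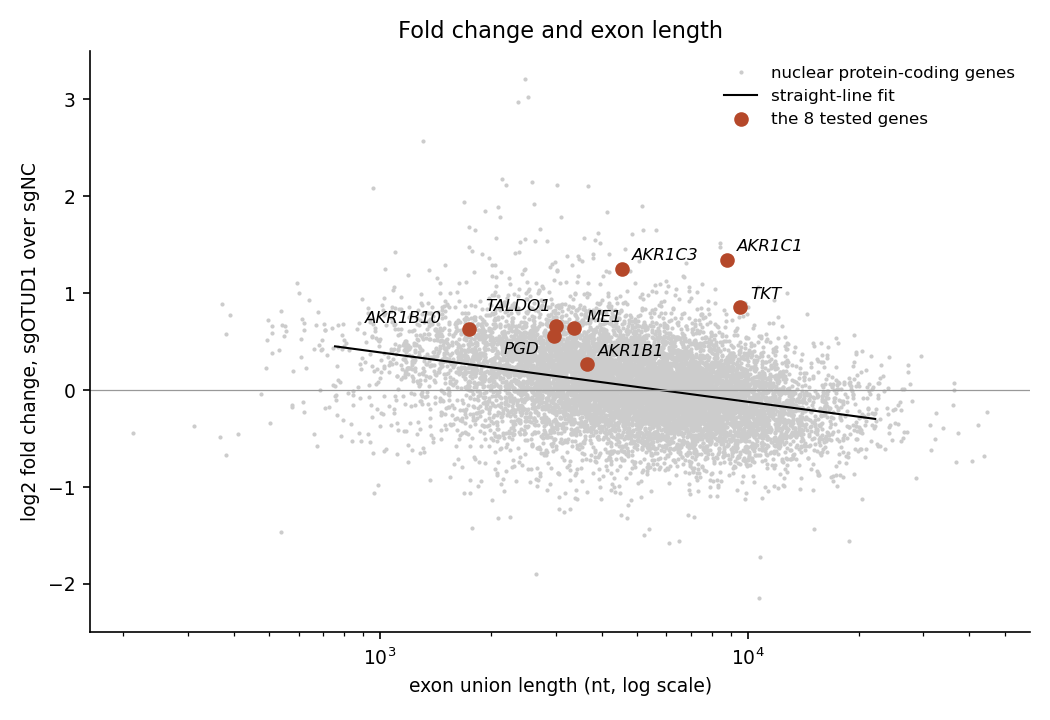
Log2 fold change, sgOTUD1 over sgNC, against exon union length on a log axis for nuclear protein-coding genes (grey), with a straight-line fit (black) and the 8 tested genes (red). The fit declines with length, TKT and AKR1C1 lie above it at the long end, and AKR1B1 lies nearest to it.

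**Figure D5:**
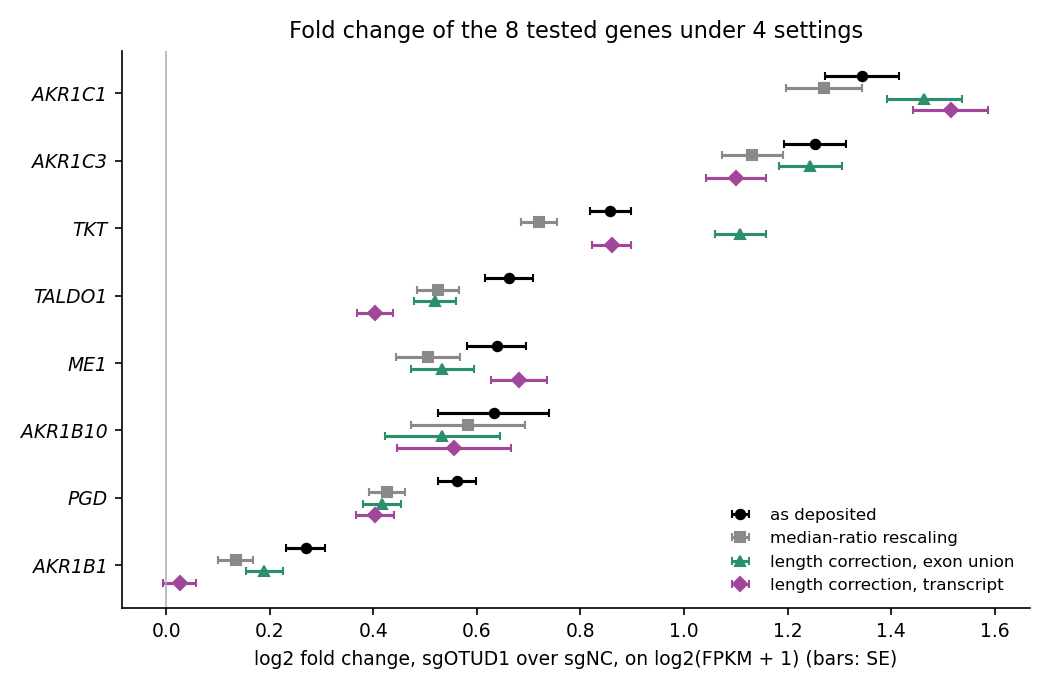
Log2 fold change (points) and SE (bars) of the 8 tested genes on the deposited values (black circles), with median-ratio rescaling (grey squares), with exon length correction (green triangles) and with transcript length correction (purple diamonds). AKR1C1 and AKR1C3 stay above 1 in all 4, and only AKR1B1 with transcript length lies next to 0.

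Promoter windows of RefSeq on GRCh38.p14, from 250 bases before to 50 after the start, were matched for 8 of the 9 genes. AKR1B10 had no entry. In the 250 bases before the start, the windows of AKR1C1 and AKR1C2 were 99.6% identical, with 1 difference in 246 aligned columns. There the window of AKR1C3 shared 74.0% of columns with AKR1C1 and 74.4% with AKR1C2. The bases after the start were not compared. A stretch of each is shown because AKR1C1 and AKR1C2, which differ in level, are alike there and AKR1C3 is not. These are chr10:4963255-4963354 on the plus strand for AKR1C1, chr10:5003922-5004021 on the minus strand for AKR1C2 and chr10:5048625-5048724 on the plus strand for AKR1C3, and capitals mark the 29 columns that are not the same in all 3.
AKR1C1: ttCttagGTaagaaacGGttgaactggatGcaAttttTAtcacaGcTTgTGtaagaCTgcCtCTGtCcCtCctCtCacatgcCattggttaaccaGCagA
AKR1C2: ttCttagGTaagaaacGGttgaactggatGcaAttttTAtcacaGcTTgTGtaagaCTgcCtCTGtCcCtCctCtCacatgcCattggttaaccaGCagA
AKR1C3: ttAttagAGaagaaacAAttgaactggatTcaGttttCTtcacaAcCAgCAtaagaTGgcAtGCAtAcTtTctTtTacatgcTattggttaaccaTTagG
AKR1C1 and AKR1C2 are identical over this stretch. AKR1C1 averaged 2.80 FPKM and AKR1C2 0.198 FPKM in sgOTUD1, against 0.495 and 0.0667 FPKM in sgNC, values that are uncertain for the shared reads described above.

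Short motifs were searched on both strands of the windows, of which some genes have more than 1. The core of the antioxidant response element, TGACNNNGC, occurred in 2 of the 8 genes, PGD and ME1, against 4384 of 27305 genes and 13.3% of 35116 windows in the whole table. A stricter core, with an A fixed after its last base, occurred in 0 of the 8 genes and in 3.18% of all windows. The AP-1 element, TGACTCA, occurred in ME1, against 1651 of 27305 genes and 4.95% of all windows. A TATA box, TATAAA, occurred on the opposite strand in AKR1C3, against 3819 of 27305 genes and 11.5% of all windows. The matches in PGD and ME1 are shown with 10 bases on each side and the core in capitals.
ME1: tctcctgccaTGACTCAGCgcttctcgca
PGD: cctcgccgggGCAATGTCAtctaggtgct
The ME1 match, at chr6:83431170-83431198 on the minus strand, holds an AP-1 element and a core match that overlap, from base -137 of the start. A further core match in ME1, not shown, begins at base 12 after the start. The PGD match, at chr1:10398853-10398881 on the plus strand, is on the opposite strand to the gene and begins at base -201. A match is a description of letters, and the absence of one in the windows of TKT, TALDO1, AKR1B1 and the AKR1C genes says nothing about sites elsewhere.

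For each gene the protein-coding gene of most similar profile was found by the smallest root mean square difference of centred log2(FPKM + 1) over the 6 libraries, among 10495 or 10496 genes. These were TUBB2A for PGD (0.0215), CRABP2 for TKT (0.0160), SPHK1 for TALDO1 (0.0136), TAF9 for ME1 (0.0185) and GRINA for AKR1B1 (0.0147). For the low or strongly changed genes the nearest were ANKRD10 for AKR1B10 (0.0410), PLK3 for AKR1C1 (0.0463), PTP4A2 for AKR1C2 (0.0150) and HCAR2 for AKR1C3 (0.0458). Because they were picked by profile over these same 6 libraries, a group difference close to that of the partner follows from the choice. PLK3, for one, had a log2 fold change of 1.35 beside 1.34 for AKR1C1.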

How the data were processed

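RNA was sequenced from 3 sgOTUD1 and 3 sgNC libraries of T24 cells, grouped by sample title. The authors deposited FPKM values for 58735 genes, per the file headers. Listed in the submitters' processing notes are hg38, DESeq2 1.20.0 and featureCounts 1.5.0-p3, with aligner and strandedness not given in the sources used here. Multiplied by GENCODE 29 exon union lengths, FPKM became whole reads for 100% of values (tolerance 0.001 reads). The library totals implied by the FPKM values followed the median-of-ratios size factors of these reads, with a ratio of 1.0 in every library. Median-of-ratios scaling between libraries is thus already in the FPKM values. The main test was limma 3.58.1 in R 4.3.3, using the trend and robust settings on log2(FPKM + 1) of genes at a mean of 0.5 FPKM or more. Tests were two-sided, group was the sole term and p-values were adjusted by Benjamini-Hochberg over 14658 genes. The code was tested on simulated reads. Intervals of read ratios are exact and cover counting error only. Alternatives were a replicate block, omission of each library, other filters (none, or 5 FPKM), TPM, median-ratio rescaling, limma with neither trend nor robust options, an offset of 0.1, a spline correction for exon length (4 degrees of freedom) and limma-voom on recovered reads (10 or more in 3 libraries). Median-ratio rescaling took its factors from genes with a mean of at least 5 FPKM and reads in every library. Correction by transcript length was chosen after seeing the data. Named genes were the 9 members, the called genes of 4 lists, up to 3 per direction of the NRF2 list, the nearest profiles and the copies. Members and lists were chosen with earlier results of these data known. A gene of the pentose phosphate list and a ratio that used it are not reported here. Protein identity was not analysed here, and coding identity was used. No libraries were merged, since chi-square per gene was 2.06 to 3.75 within groups and 61.0 to 70.8 between them.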

Additional observations from a re-analysis of the deposited data

How the results depend on the processing

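Of 126 alternative values for the 8 tested genes, 0 reversed a direction and 1 ended a call. Many of these could not reverse a direction. The replicate block, other filters and limma without trend and robust options keep the same fold change. Leaving out a library or changing the offset cannot reverse genes whose groups do not overlap. Only TPM, median-ratio rescaling, the length corrections and limma-voom could do so. Leaving out each library kept 8 genes called. Log2 fold changes then ranged from 0.54 to 0.58 for PGD, 0.84 to 0.89 for TKT, 0.64 to 0.71 for TALDO1, 0.59 to 0.67 for ME1, 0.25 to 0.30 for AKR1B1, 0.57 to 0.69 for AKR1B10, 1.30 to 1.38 for AKR1C1 and 1.195 to 1.306 for AKR1C3. AKR1B1 lost its call with transcript length correction (0.026, adjusted p = 0.531 in limma). AKR1C2 had 1.48 with limma-voom, against 0.17 on the log2(FPKM + 1) scale. The AKR1C sum differed by 1.53 with TPM and by 2.43 for AKR1C1 and AKR1C2 only. With exon length and transcript length correction, ratio differences were 0.60 and 0.46 for TKT/TALDO1, 0.19 and 0.42 for ME1/IDH1, and -1.30 and -1.56 for AKR1C3/AKR1C1. Genes called lower numbered 1757 at a mean FPKM of at least 5 (7047 tested) and 5913 with limma-voom (15414 tested), against 3615. MTHFD1L changed sign with median-ratio rescaling (-0.0068) and TPM (-0.020), and SLC7A11 with exon length (0.038) and transcript length correction (0.24). The replicate block called 4431 genes higher and the same count of 8 members. Deviations of same-numbered libraries from their group means had correlations of -0.051 to 0.002, so the numbers do not pair them, and under the block the call of MTHFD1L ended. Causes were not tested. AKR1B10 and AKR1C2, with 5 to 12 and 4 to 11 reads per sgNC library, are the values that depth limits most.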
